A study of Mus musculus with 12 samples.

Results

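The cerebellum and the cerebral cortex of the same normal young mice were compared across all annotated genes. Of the 12 RNA sequencing libraries of the study, 6 entered this comparison: 3 from the cerebellum and 3 from the cortex of WT mice at 1 month of age. The mice were on the C57BL/6J background and came from a colony in which the sorting nexin gene Snx14 had been mutated by Cas9 injection, so that the WT animals were those without the mutant allele. The remaining 6 libraries, from the same tissues of Snx14-KO mice, served as a repeat of the regional comparison in other animals and, in 1 alternative, to estimate the spread together with the WT libraries. The titles give mouse 1, 2 and 3 in each tissue, so each WT animal contributed a cerebellum and a cortex, and the replicate numbers used here are those mouse numbers. Tissue was dissected on ice and frozen, and the labels give its cell type as mixed, so each value is an average over all neurons, glia, vessels and membranes of the piece taken.

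The cerebellum and the cortex are built from different neurons. In the cerebellum, densely packed excitatory granule cells send parallel fibres to Purkinje cells, large inhibitory neurons that carry the only output of the cerebellar cortex, and Bergmann glia wrap the synapses between them. The cerebral cortex holds layered excitatory projection neurons and several families of inhibitory interneurons that arise in the ventral forebrain. The transcription factors that pattern the hindbrain (En, Pax, Zic, Barhl and Lhx genes) and the forebrain (Emx, Lhx2, Tbr1 and Dlx genes) stay active to differing degrees in the adult descendants of those regions. In such bulk samples a smaller number of cells of a type and less RNA per cell cannot be told apart.

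The 250 bases before the annotated start are shown for 4 genes that the regional differences below turn on. Gabra6, a GABA-A receptor subunit typical of granule cells, and Vip, a peptide of cortical interneurons, were among the 12 largest differences in each direction. Junb and Fos are activity-induced transcription factors, of which Junb was higher in the cortex and Fos did not pass the test. The sequences are from RefSeq on GRCm38.p6, written 5′ to 3′ on the strand of the gene, and capitals mark the motif matches described further on.
Gabra6, chr11:42321073-42321322, minus strand: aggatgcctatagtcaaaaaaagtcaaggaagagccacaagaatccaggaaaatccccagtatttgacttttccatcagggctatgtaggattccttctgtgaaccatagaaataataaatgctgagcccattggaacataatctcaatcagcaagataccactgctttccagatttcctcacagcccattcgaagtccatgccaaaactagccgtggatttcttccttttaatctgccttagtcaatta
Vip, chr10:5638968-5639217, plus strand: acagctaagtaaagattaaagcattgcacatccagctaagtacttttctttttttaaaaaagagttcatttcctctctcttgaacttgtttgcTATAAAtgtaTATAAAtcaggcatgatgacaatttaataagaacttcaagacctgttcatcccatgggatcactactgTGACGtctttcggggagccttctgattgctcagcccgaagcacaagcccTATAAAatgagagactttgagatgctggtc
Junb, chr8:84978749-84978998, minus strand: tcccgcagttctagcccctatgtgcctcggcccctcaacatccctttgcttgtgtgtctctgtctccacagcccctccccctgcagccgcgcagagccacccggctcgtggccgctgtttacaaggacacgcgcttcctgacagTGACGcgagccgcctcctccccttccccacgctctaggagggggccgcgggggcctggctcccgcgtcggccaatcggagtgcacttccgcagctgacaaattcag
Fos, chr12:85473640-85473889, plus strand: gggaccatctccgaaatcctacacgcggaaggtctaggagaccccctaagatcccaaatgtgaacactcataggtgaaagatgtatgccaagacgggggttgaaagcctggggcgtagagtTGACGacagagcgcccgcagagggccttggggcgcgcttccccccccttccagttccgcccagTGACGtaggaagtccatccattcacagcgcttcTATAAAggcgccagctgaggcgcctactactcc

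Gene counts summed to between 16790722 and 17596170 in the WT cerebellar libraries and between 18732065 and 19677417 in the WT cortical libraries. The tissue separated the libraries on the first principal component, which held 86.5% of the variance, and the second held 5.4% and set cerebellum replicate 1 apart from cerebellum replicate 3. The labels give no sex. The transcript Xist of the inactive X chromosome stood at 409.9 and 621 CPM in replicate 1 of cerebellum and cortex and at no more than 5.57 CPM in the others, and 4 Y-linked genes stood at no more than 0.158 CPM in replicate 1 of both tissues and between 19.6 and 90.7 CPM in the others. Mouse 1 was thus the only one with this female pattern, equally in both tissues, and its part in the values of replicate 1 was not tested. Levels are given as CPM, the counts scaled to a fixed total per library, after TMM scaling, always in the order of replicates 1, 2 and 3. A library that stood apart touched several results. Markers of the choroid plexus, the epithelium in the brain ventricles that makes cerebrospinal fluid, summed to 83.6, 2748 and 7469 CPM in the cerebellar libraries. In the cortical libraries they summed to 141, 17.2 and 20.7 CPM. Cerebellum replicate 1 was therefore also compared alone with the 3 cortical libraries, an alternative chosen after these values were seen. Genes of the other tissue were low and uneven between libraries, and the source of these counts was not tested. The 12 genes with the largest differences in favour of the cerebellum summed to 18.4, 8.10 and 6.83 CPM in the cortical libraries, and 11 of them were highest in cortex replicate 1. The 12 genes with the largest differences in favour of the cortex summed to 16.3, 8.56 and 5.52 CPM in the cerebellar libraries, and 6 of them were highest in cerebellum replicate 1.

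Of 55536 genes in the files, 18543 passed the filter on low counts and were tested with edgeR's quasi-likelihood test. A gene was called where its Benjamini-Hochberg adjusted p was under 0.05 and its log2 difference between tissues was over 0.5. By this rule 7496 genes (40.4%) differed, of which 3529 (19.0%) were higher in the cerebellum and 3967 (21.4%) higher in the cortex. These 2 shares are the background for the counts of list members given below. Log2 differences are signed so that positive values are higher in the cerebellum, and are given ± SE with 3 libraries per tissue. Differences of over 4-fold were called for 726 genes (3.92%) in favour of the cerebellum and 1180 (6.36%) in favour of the cortex, together 10.3% of genes tested, and 116 and 263 genes passed a log2 difference of 5. All 3 cerebellar libraries lay above all 3 cortical libraries for 5917 genes (31.9%), and the reverse held for 6038 (32.6%), so that the tissues did not overlap for 64.5% of genes. Among the genes past 4-fold the tissues did not overlap for 704 of 726 cerebellar and 1180 of 1180 cortical genes. The 22 cerebellar genes that overlapped included the choroid plexus genes Ttr, Folr1, Kl and Enpp2, for which cerebellum replicate 1 lay within or near the cortical range. Protein-coding genes made up 551 of the 726 cerebellar and 841 of the 1180 cortical genes past 4-fold, and the others included 55 and 111 long intergenic RNAs and 61 and 110 antisense RNAs. Reads were counted without regard to strand, so antisense RNAs and the genes they overlap cannot be told apart. The median log2 difference over all genes tested was 0.023. Scaling by library size alone, without TMM, shifted that median by 0.124 and moved the cerebellar share of the calls from 47.1% to 56.8%, so small differences in one direction depend on the scaling.

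**Figure D1:**
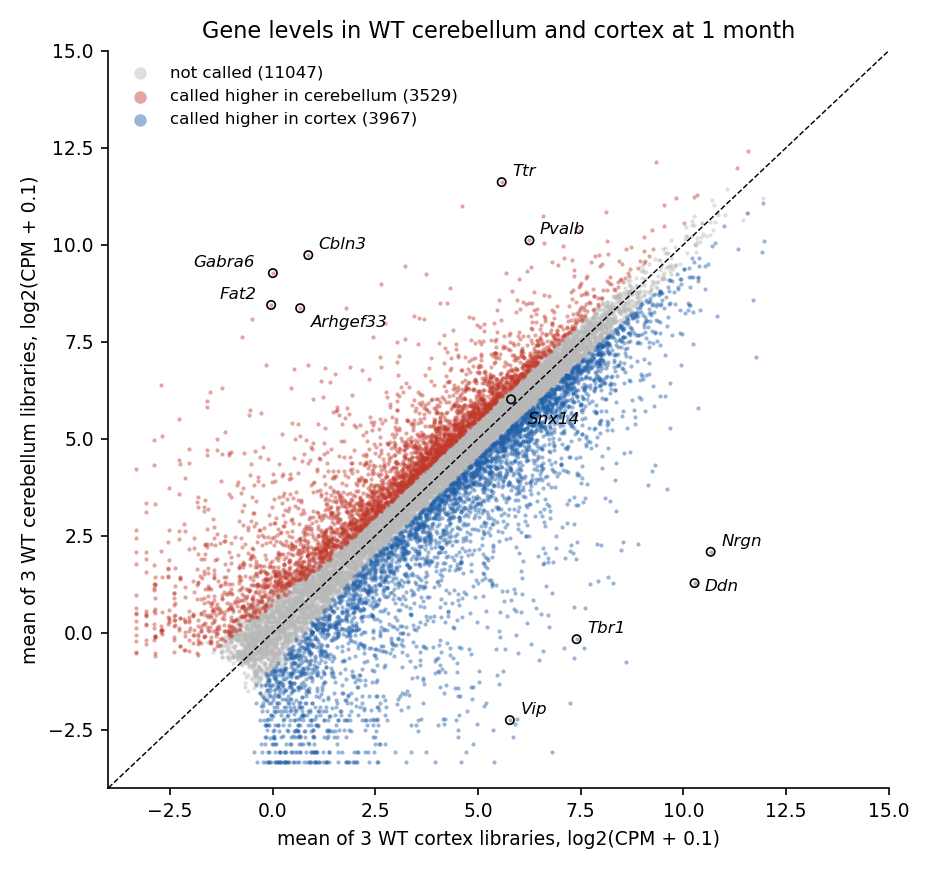
Mean level in 3 WT cerebellum libraries against that in 3 WT cortex libraries, both as log2(CPM + 0.1), for each of the 18543 genes tested, with called genes coloured by the tissue in which they were higher. The 3529 genes higher in the cerebellum lie above the dashed line of equal levels and the 3967 higher in the cortex below it, and Snx14 lies close to it.

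The largest difference in favour of the cerebellum among abundant genes was in Crtam, an immunoglobulin-family adhesion molecule (chromosome 9, 40969691 to 41004628, GRCm38). Crtam measured 87.05, 78.7 and 86.2 CPM in the cerebellum and 0.158, 0 and 0 CPM in the cortex, where only 3 counts were found, giving a ratio of 1552 (95% interval 531 to 7531) from counting error alone. Gabra6 (chromosome 11, 42306437 to 42321072, GRCm38) measured 614, 688 and 548 CPM in the cerebellar libraries and 2.01, 0.533 and 0.169 CPM in the cortical libraries. Its log2 difference was 9.38 ± 0.35 (edgeR adjusted p = 4.89e-09), and the cerebellar libraries spread far less than the distance to the cortex. Cbln3, a secreted cerebellin of granule cells, measured 924, 872 and 755 CPM in the cerebellar libraries and 3.27, 1.33 and 0.565 CPM in the cortical libraries, and the giant cadherin Fat2 of parallel fibres measured 364, 333 and 349.8 CPM in the cerebellar libraries and 1.53, 0.6396 and 0.452 CPM in the cortical libraries. The Purkinje cell phosphatase inhibitor Ppp1r17 measured 280.2, 283 and 247 CPM in the cerebellar libraries and 0.95, 0.426 and 0.452 CPM in the cortical libraries, with a log2 difference of 8.77 ± 0.17. In each of these 4 genes cortex replicate 1 was the highest cortical library and was still far below the lowest cerebellar library.

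Others of the 12 were the FGF-signalling chaperone Cnpy1 (8.59 ± 0.22), the kinase Nrk (8.14 ± 0.32), the transcription factor Lhx1 (8.02 ± 0.30), the D-amino acid oxidase Dao of Bergmann glia (7.89 ± 0.20), the exchange factor Arhgef33 (7.78 ± 0.16), the homeobox gene En2 (7.23 ± 0.11) and the calcium pump Atp2a3 (6.599 ± 0.24). En2 was the steadiest among them, with 122, 118 and 120.1 CPM in the cerebellar libraries and 0.792, 0.959 and 0.621 CPM in the cortical libraries.

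Among the cortical genes the guanine deaminase Gda measured 0.607, 0.747 and 0.107 CPM in the cerebellar libraries and 375, 418 and 373 CPM in the cortical libraries, and the silent potassium channel subunit Kcnv1 measured 0.386, 0.115 and 0.0536 CPM in the cerebellar libraries and 135, 168 and 152 CPM in the cortical libraries. Nrgn (chromosome 9, 37544492 to 37552904, GRCm38) measured 6.13, 4.31 and 1.98 CPM in the cerebellar libraries and 1475, 1815 and 1577 CPM in the cortical libraries, a log2 difference of -8.62 ± 0.29 (edgeR adjusted p = 2.53e-09). The muscarinic receptor Chrm1 measured 0.442, 0.689 and 0.482 CPM in the cerebellar libraries and 169.6, 163 and 155 CPM in the cortical libraries, with a log2 difference of -8.23 ± 0.12. Others of the 12 cortical genes were the thyroid hormone-binding protein Crym (-9.23 ± 0.25), the dendritic protein Ddn (-9.05 ± 0.47), the transcription factor Lhx2 (-9.04 ± 0.19), the interneuron peptide Vip (-8.86 ± 0.19), the immediate early gene Egr3 (-8.15 ± 0.28), the projection neuron factor Tbr1 (-7.72 ± 0.12) and the inward rectifier Kcnj4 (-7.68 ± 0.20). Ddn had the widest error of the 12, with 5.24, 0.919 and 0.804 CPM in the cerebellar libraries against 1354, 1278 and 1076 CPM in the cortical libraries, and cerebellum replicate 1 held most of that spread.

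**Figure D2:**
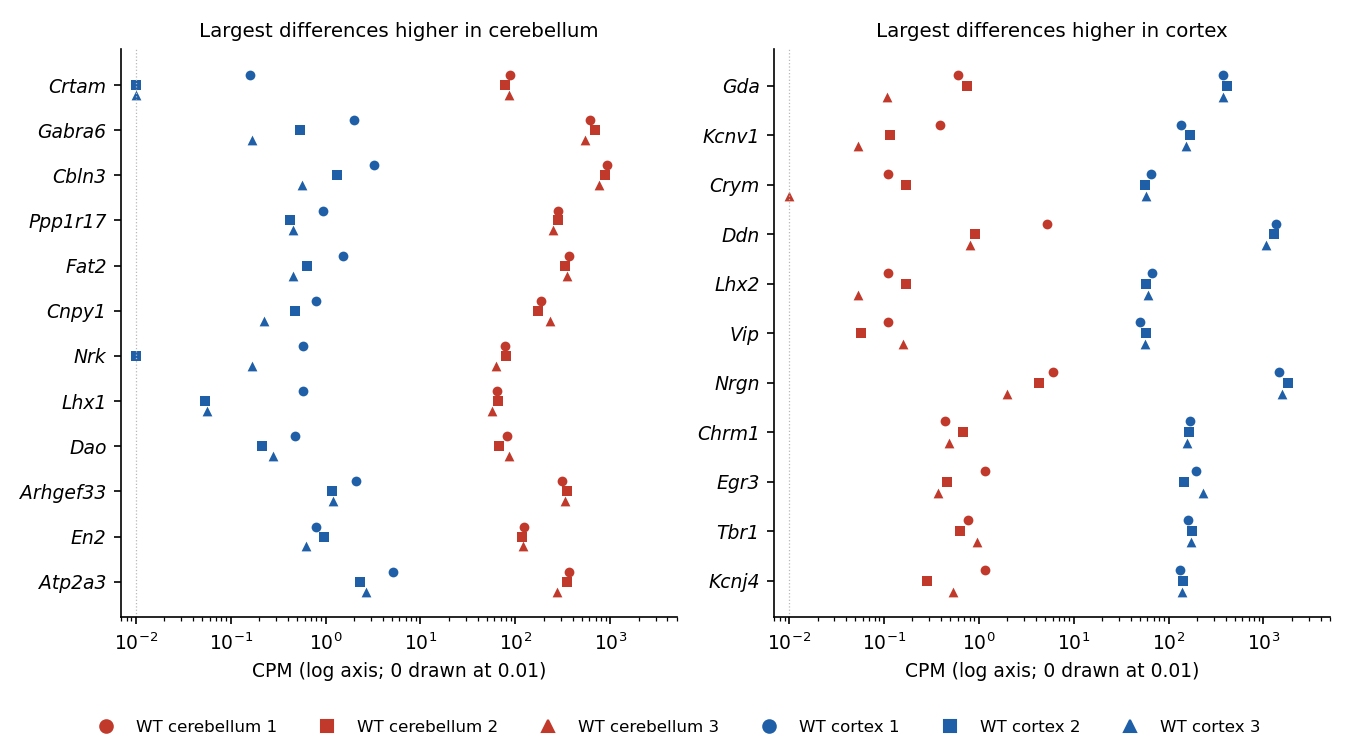
CPM on a log axis in each of the 6 WT libraries for the genes reported among the 12 called genes with the largest difference in each direction, of those with at least 50 CPM in the higher tissue. Points of the same tissue cluster within each gene, and no library of one tissue reaches the range of the other.

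Some genes came close to absence in 1 tissue, here meaning over 1 CPM in every library of one tissue and under 0.1 CPM in every library of the other. This held for 20 genes of the cerebellum and 75 of the cortex. The 5 most abundant in the cerebellum were Iltifb, Sycp1, Skor2, Smpx and Pax3. Iltifb has a close copy in Il22, so its reads are uncertain, and Sycp1, a protein of meiotic chromosomes, measured 27.8, 36.8 and 29.2 CPM in the cerebellum and 0.0528, 0.0533 and 0 CPM in the cortex. Skor2, a corepressor of developing Purkinje cells, measured 18.9, 21.3 and 15.2 CPM in the cerebellum and had no count in any cortical library, which makes it at least 339.9-fold higher if 3 counts over the cortical group are taken as the limit. Among the 5 most abundant in the cortex were Zfp831, Ankrd63 and the antisense RNA Dlx6os1, which was at least 277-fold higher by the same limit.

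Of the patterning transcription factors, most hindbrain genes were higher in the cerebellum and most forebrain genes in the cortex. In the hindbrain list 20 of 21 tested genes were higher in the cerebellum, none was higher in the cortex, and the median log2 difference was 5.299. Zic1, a zinc finger factor of granule cells, measured 744, 714 and 626 CPM in the cerebellar libraries and 11.8, 7.303 and 8.64 CPM in the cortical libraries. En1 (7.37 ± 0.99), the partner of En2 at the midbrain to hindbrain border, and the Iroquois genes Irx1 (3.96 ± 0.30), Irx2 (5.698 ± 0.57), Irx3 (5.24 ± 0.37) and Irx5 (5.52 ± 0.36) showed the same direction. Lhx9, at a log2 difference of 0.51 ± 0.72, was the exception that did not pass the test, although it passed at 2.10 without cortex replicate 1. In the forebrain list 21 of 26 were higher in the cortex and 2 in the cerebellum, with a median of -5.67. Tbr1 measured 0.773, 0.632 and 0.965 CPM in the cerebellar libraries and 159, 175 and 173 CPM in the cortical libraries. Emx2 had no count in the cerebellum and was at least 170.4-fold higher in the cortex, and Fezf2, which specifies deep-layer neurons, had 2 cerebellar counts and a ratio of 789.5 (95% interval 218 to 6525). The 2 forebrain genes that went the other way were the repressors Bhlhe22 (1.21 ± 0.10) and Zbtb18 (0.55 ± 0.079), the latter falling to 0.49 and out of the calls without cerebellum replicate 2. None of the 39 Hox genes passed the filter on low counts in either tissue, so nothing is said of them.

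Granule cell genes were all higher in the cerebellum (16 of 16), with a median log2 difference of 4.84. Cbln1, the cerebellin that bridges parallel fibres to Purkinje cells, measured 639.6, 628 and 561 CPM in the cerebellar libraries and 13.7, 11.1 and 14.9 CPM in the cortical libraries. The bHLH factor Neurod1 (4.39 ± 0.16), the homeobox factors Barhl1 (5.299 ± 0.55) and Pax6 (2.96 ± 0.091) and the cadherin Cdh15 (4.25 ± 0.18) were also higher. The smallest difference in the list was in the GABA-A delta subunit Gabrd (0.79 ± 0.068), a gene that forebrain neurons also express. The granule markers summed to 4826, 4660.1 and 4167 CPM in the cerebellum and 388, 366 and 371 CPM in the cortex.

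Purkinje cell genes were higher in the cerebellum in 19 of 20 cases, with a median of 3.66. The carbonic anhydrase-related protein Car8 measured 2048, 2229 and 1905 CPM in the cerebellar libraries and 27.8, 19.5 and 26.1 CPM in the cortical libraries, and the inositol trisphosphate receptor Itpr1 that it binds measured 4218, 4676 and 4591 CPM in the cerebellar libraries and 585, 616 and 732 CPM in the cortical libraries. Rgs8, a regulator of G-protein signalling, measured 1727, 1786 and 1614 CPM in the cerebellar libraries and 90.9, 98.4 and 95.6 CPM in the cortical libraries. Calbindin, Calb1, was higher by a log2 difference of 3.07 ± 0.11 and the glutamate transporter Slc1a6 by 5.201 ± 0.16. Pcp2, at 6.36 ± 0.14, shares 51.0% of its exons with other annotated genes, and Homer3 and Pcp4 share smaller parts. Foxp2 was the one member higher in the cortex, where deep-layer neurons also express it, at 18.1, 25.7 and 22.9 CPM against 11.5, 12.8 and 8.36 CPM.

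Other cerebellar neurons gave 10 of 12 tested markers higher in the cerebellum and 1 in the cortex. The receptor tyrosine kinase Kit of molecular layer interneurons measured 374, 399 and 376 CPM in the cerebellar libraries and 50.9, 40.1 and 46.2 CPM in the cortical libraries. The glycine transporter Slc6a5 of Golgi cells was higher by 6.74 ± 0.25, and the inhibitory lineage factors Tfap2a and Tfap2b by 6.89 ± 0.26 and 5.93 ± 0.20. Eomes, a factor of unipolar brush cells, measured 29.8, 8.04 and 11.9 CPM in the cerebellum, so that replicate 1 held more than the other two together. Grm2, a receptor of Golgi cells, was higher in the cortex (-1.87 ± 0.11).

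Markers of cortical excitatory neurons were higher in the cortex in 25 of 27 cases and in the cerebellum in none, with a median of -3.4. Camk2a, the alpha subunit of calcium/calmodulin kinase II, measured 135, 142 and 136 CPM in the cerebellar libraries and 3432, 3658 and 3409 CPM in the cortical libraries. The deep-layer factor Bcl11b differed by -5.59 ± 0.14 and the sulphotransferase Hs3st4 by -6.14 ± 0.17. Differences were smaller for Rorb of layer 4 (-1.99 ± 0.076), Cux2 (-1.01 ± 0.093) and Pou3f3 (-0.998 ± 0.060). The 2 members not called were Cux1, at 91.2, 92.05 and 87.8 CPM in the cerebellum and 97.1, 85.7 and 86.5 CPM in the cortex, and Neurod2, at 111, 105 and 105 and 100.5, 79.6 and 80.9 CPM.

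Interneuron markers were higher in the cortex in 16 of 20 cases and higher in the cerebellum in 4. The fitted median was -6.58, and -6.05 with the 4 genes that had no cerebellar count set at their limit. Somatostatin, Sst, measured 2.21, 2.7 and 2.36 CPM in the cerebellar libraries and 255, 253 and 217 CPM in the cortical libraries. The lysosome-associated membrane protein Lamp5 differed by -6.53 ± 0.16, the transcription factors Dlx1 and Lhx6 by -7.67 ± 0.20 and -7.5 ± 0.45, and cholecystokinin, Cck, by -2.81 ± 0.11. The calcium-binding proteins went the other way. Parvalbumin, Pvalb, which marks a class of cortical interneurons and is also made by Purkinje cells and molecular layer interneurons, measured 1167, 1132 and 1022 CPM in the cerebellar libraries and 71.5, 80.9 and 76.1 CPM in the cortical libraries and was higher in the cerebellum by 3.86 ± 0.084. Calretinin, Calb2, of granule and unipolar brush cells, was higher by 4.55 ± 0.16. Adarb2 (0.90 ± 0.11) and Maf (0.57 ± 0.069) were the other members higher in the cerebellum.

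**Figure D3:**
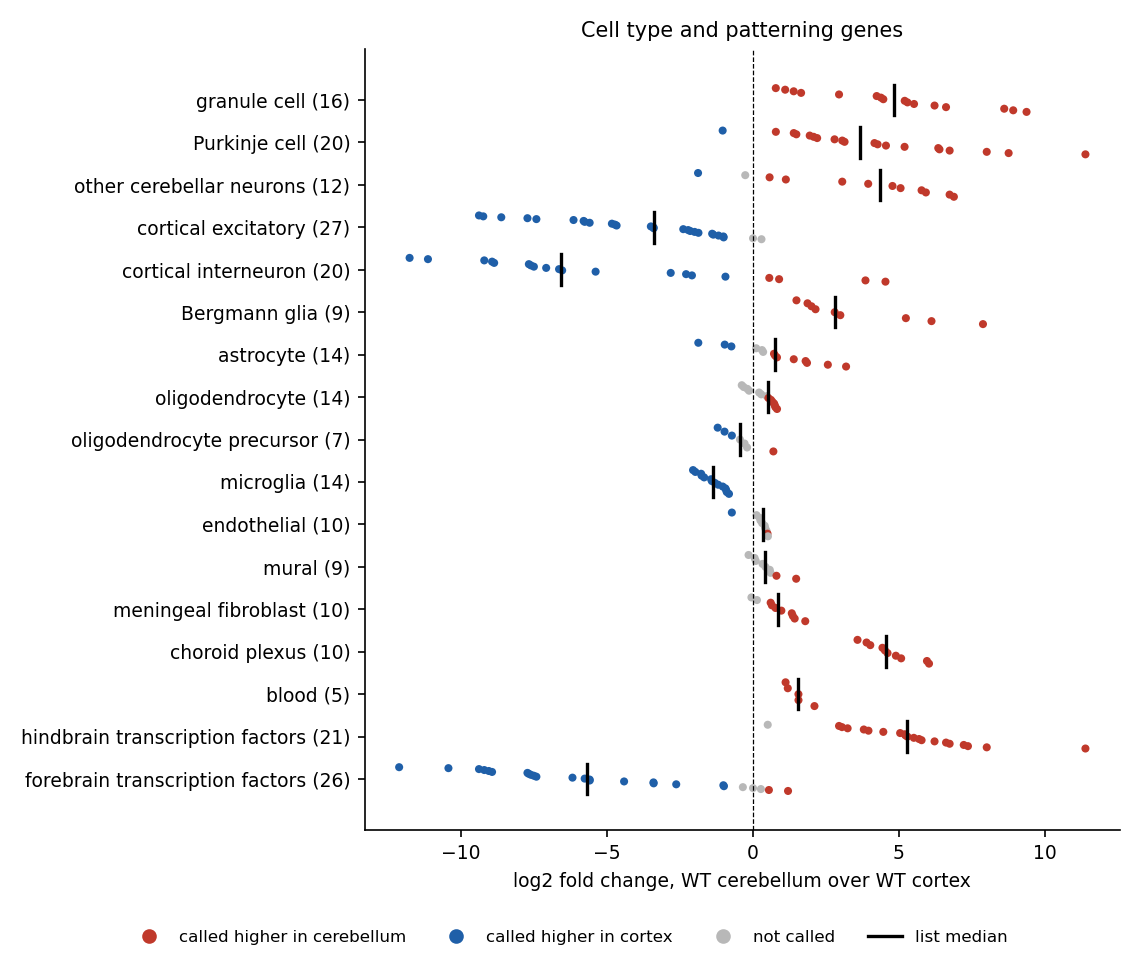
Log2 difference of every tested member of 17 lists of cell type markers and patterning factors, positive when higher in the cerebellum, with the list median marked. The medians of granule, Purkinje and Bergmann markers lie to the right, those of excitatory, interneuron and microglial markers to the left, and those of endothelial and mural markers near 0, and the outermost points include genes with no count in 1 tissue, whose fitted values depend on edgeR's prior count.

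Bergmann glia markers were higher in the cerebellum in all 9 cases, with a median of 2.81. The growth factor Gdf10 measured 240.4, 299 and 212 CPM in the cerebellar libraries and 5.17, 9.17 and 5.42 CPM in the cortical libraries, the protease inhibitor A2m was higher by 6.12 ± 0.18 and the glutamate transporter Slc1a3 by 1.497 ± 0.093. Astrocyte genes divided, with 8 of 14 higher in the cerebellum and 3 higher in the cortex. The glutamate transporter Slc1a2 measured 1007, 1216 and 1054 CPM in the cerebellar libraries and 3869, 4313 and 3763 CPM in the cortical libraries and was higher in the cortex by a log2 difference of -1.87 ± 0.089. Slc1a3, the other main astroglial transporter, measured 1967, 2276 and 1973 CPM in the cerebellar libraries and 745, 806 and 652 CPM in the cortical libraries, so the pair had opposite orders. The water channel Aqp4 (1.86 ± 0.092), S100b (2.57 ± 0.071) and angiotensinogen, Agt (3.197 ± 0.30), were higher in the cerebellum, while glutamine synthetase, Glul (-0.73 ± 0.060), and Mfge8 (-0.96 ± 0.087) were higher in the cortex.

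Myelin genes were higher in the cerebellum in 7 of 14 cases and in the cortex in none. Mbp, a structural protein of myelin, differed by 0.83 ± 0.10. The lineage factor Olig2 did not pass the test, at 30.2, 32.1 and 27.2 CPM in the cerebellum and 38, 34.5 and 38.5 CPM in the cortex. Precursor markers were higher in the cortex in 3 of 7 cases, including the growth factor receptor Pdgfra (-1.203 ± 0.12) and the chondroitin sulphate proteoglycan Cspg4 (-0.72 ± 0.16), and 1, Enpp6 of newly formed oligodendrocytes, was higher in the cerebellum (0.71 ± 0.10).

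Microglial markers were higher in the cortex in 14 of 14 cases, with a median of -1.35. In the Snx14-KO libraries 12 of the 14 had the same direction. The purinergic receptor P2ry12 measured 11.8, 15.9 and 13.5 CPM in the cerebellar libraries and 58.8, 61.03 and 49.9 CPM in the cortical libraries. The fractalkine receptor Cx3cr1 measured 15.2, 19.6 and 17.3 CPM in the cerebellar libraries and 58, 61.4 and 56.4 CPM in the cortical libraries, and no library of one tissue reached the other. The growth factor receptor Csf1r differed by -1.299 ± 0.089, and the complement subunits C1qa, C1qb and C1qc were among those that differed least, by -0.81 ± 0.13, -0.94 ± 0.13 and -0.91 ± 0.14. Itgam shares exons with other annotated genes. None of the 4 tested markers of border macrophages was called in either direction, and the sign of their median turned without cerebellum replicate 1 or without cortex replicate 1.

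Endothelial markers were called once in each direction among 10 tested, below the 19.0% and 21.4% of all genes tested, with Ly6c1 at 0.50 ± 0.11 and the lipid transporter Mfsd2a at -0.72 ± 0.16. Ly6c1 was not called without cerebellum replicate 2 (0.40), cortex replicate 2 (0.46) or cortex replicate 3 (0.45), or with DESeq2 (0.49). Mural cell markers were higher in the cerebellum in 2 of 9 cases, the secreted protein Vtn (0.81 ± 0.17) and desmin, Des (1.49 ± 0.27), close to the 19.0% of all genes tested, and in 5 without cerebellum replicate 1. Meningeal fibroblast markers were higher in the cerebellum in 8 of 10 cases, with a median of 0.88, and in 5 without cerebellum replicate 2 or without cortex replicate 2. The collagen Col1a2 measured 34.9, 47.9 and 33.7 CPM in the cerebellar libraries and 19, 13.4 and 13.6 CPM in the cortical libraries. Blood genes were higher in all 5 cases with a median of 1.56, and summed to 167, 414 and 246 CPM in the cerebellum and 73.8, 134 and 111 CPM in the cortex, highest in replicate 2 of each tissue. With cerebellum replicate 1 alone, 3 meningeal and 3 blood genes were still called.

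Choroid plexus markers were called higher in the cerebellum in 10 of 10 cases, and rested on replicates 2 and 3. Transthyretin, Ttr, the thyroxine carrier that this epithelium secretes, measured 52.8, 2506 and 6846 CPM in the cerebellar libraries and 121, 9.81 and 12.4 CPM in the cortical libraries. Cerebellum replicate 1 was thus below cortex replicate 1, and the log2 difference of 6.04 ± 1.498 has a wide error. The anti-ageing hormone Kl measured 1.93, 86.6 and 237 CPM in the cerebellar libraries and 8.34, 1.65 and 3.22 CPM in the cortical libraries, and the homeobox factor Otx2, which cerebellar granule cells also use during development, measured 7.62, 12.1 and 24.5 CPM in the cerebellar libraries and 1.48, 0.533 and 0.678 CPM in the cortical libraries. With cerebellum replicate 1 alone, 2 of the 10 markers were called. Genes of other groups followed the same order of libraries, among them the sphingomyelin synthase Sgms2 (3.64, 10.1 and 18.3 CPM in the cerebellum) and the semaphorin Sema3b (2.04, 12.9 and 32.2 CPM). The part of the choroid plexus in those values was not tested.

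Markers of tissue next to the cortex were also uneven. Of 9 tested striatal markers 7 were higher in the cortical libraries, where the list summed to 327, 719 and 356 CPM, highest in replicate 2, against 376, 361 and 420.4 CPM in the cerebellum. The adenosine receptor Adora2a measured 7.28, 24.5 and 4.74 CPM in the cortex. Penk, whose transcript Golgi cells of the cerebellum also make, was higher in the cerebellum (0.79 ± 0.23), but not with DESeq2 (0.78) and not without cortex replicate 1 (0.64) or cortex replicate 3 (0.57). Hippocampal markers were higher in the cortical libraries in 4 of 7 cases and in the cerebellum in 2. The list summed to 179, 114 and 111 CPM in the cortex, highest in replicate 1, against 111, 104 and 99.3 CPM in the cerebellum. The part of these neighbouring tissues in the dopamine receptor values given further on was not tested.

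**Figure D4:**
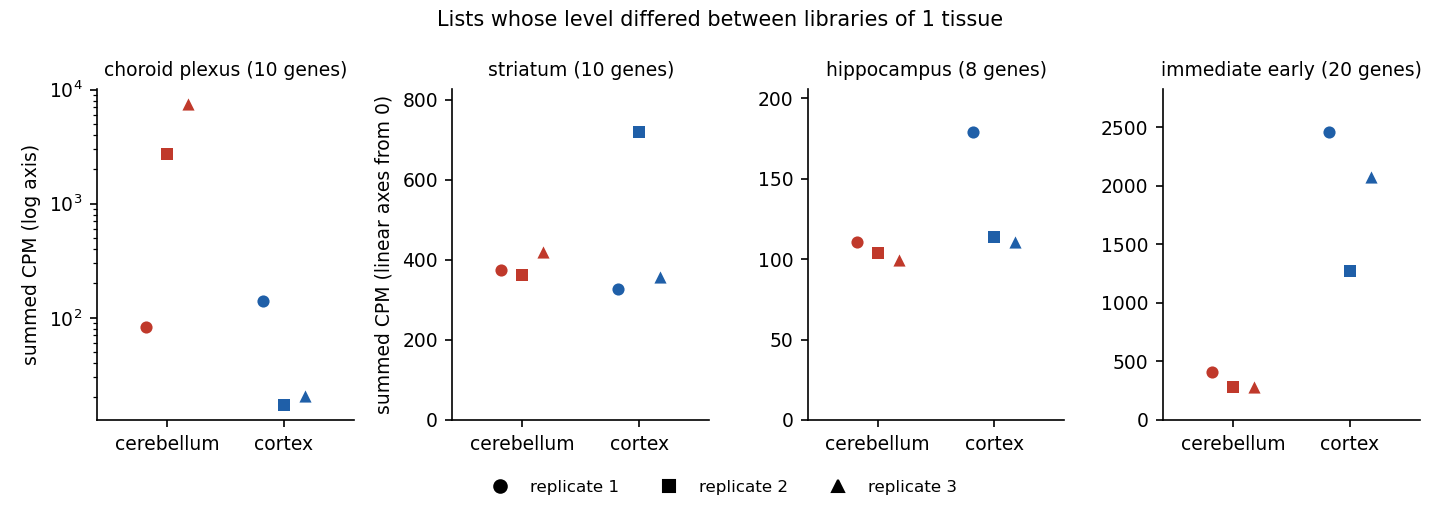
Summed CPM of the choroid plexus, striatum, hippocampus and immediate early lists in each of the 6 WT libraries, on a log axis for the choroid plexus and on linear axes from 0 for the others. The choroid plexus sum differs between cerebellar replicates by more than it differs between cerebellum replicate 1 and the cortex.

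Receptors for fast inhibition differed by subunit. GABA-A subunits were higher in the cerebellum in 3 of 15 tested cases, near the 19.0% of all genes tested, and in the cortex in 7, against 21.4%. Gabra6 and Gabrd were among those higher in the cerebellum. Gabra5, an extrasynaptic subunit of the forebrain, measured 1.32, 0.919 and 1.02 CPM in the cerebellar libraries and 81.8, 65.7 and 71.6 CPM in the cortical libraries. Gabrg3 (-4.25 ± 0.15), Gabra3 (-3.23 ± 0.076) and Gabra4 (-1.67 ± 0.076) were higher in the cortex. The common synaptic subunit Gabrb2 was not called and measured 138, 176 and 148 CPM in the cerebellum and 142, 141 and 168 CPM in the cortex. Of 3 tested glycine receptor subunits, Glra3 (-3.603 ± 0.28) and Glra2 (-2.79 ± 0.14) were higher in the cortex.

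Ionotropic glutamate receptors were higher in the cerebellum for 5 of 18 subunits and in the cortex for 7. The NMDA receptor subunits showed opposite orders. Grin2b measured 22.6, 27.2 and 25.5 CPM in the cerebellar libraries and 407, 357 and 482 CPM in the cortical libraries, Grin2a differed by -2.43 ± 0.094, and Grin2c, which replaces Grin2b as granule cells mature, measured 165, 127 and 143 CPM in the cerebellar libraries and 43.1, 50.9 and 44.1 CPM in the cortical libraries. Among AMPA receptor subunits Gria4 (2.53 ± 0.079) and Gria1 (1.605 ± 0.087) were higher in the cerebellum and Gria2 (-1.27 ± 0.063) and Gria3 (-0.65 ± 0.078) in the cortex. Metabotropic receptors higher in the cerebellum included Grm4 of granule cell terminals (3.36 ± 0.083), and they were higher in the cortex for 5 of 7. The Gq-coupled Grm5 measured 9.77, 11.8 and 11.1 CPM in the cerebellar libraries and 212, 185 and 189.9 CPM in the cortical libraries.

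Transmitter transport genes were higher in the cerebellum in 7 of 14 cases and in the cortex in 5. The vesicular glutamate transporter Slc17a7 measured 371, 305 and 277 CPM in the cerebellar libraries and 1291, 1439 and 1363 CPM in the cortical libraries. The GABA-synthesising enzyme Gad1 (1.13 ± 0.065), the vesicular transporter Slc32a1 (1.31 ± 0.090) and the glycine transporter Slc6a9 (1.88 ± 0.15) were higher in the cerebellum. Gad2 was not called, at 0.27 ± 0.076.

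Voltage-gated potassium channels were higher in the cortex for 25 of 36 subunits and in the cerebellum for 9, with a median of -1.76. The silent subunits Kcng1 (-7.42 ± 0.33) and Kcnf1 (-6.75 ± 0.15), the M-current subunit Kcnq5 (-6.7 ± 0.24) and the ether-a-go-go channel Kcnh3 (-5.52 ± 0.17) were higher in the cortex. Kcnc2, a channel of fast-spiking neurons, measured 6.46, 7.699 and 6.97 CPM in the cerebellar libraries and 143, 146 and 144 CPM in the cortical libraries. Kcng4 (4.73 ± 0.088) and Kcnd2 (1.05 ± 0.074) were among those higher in the cerebellum. Among 21 sodium, calcium and HCN channel genes, 4 were higher in the cerebellum, the same 19.0% as over all genes tested, including the P/Q-type subunit Cacna1a (0.81 ± 0.081) and the T-type subunit Cacna1g (2.28 ± 0.11). The 8 higher in the cortex included the sodium channel subunits Scn3b (-4.42 ± 0.15) and Scn3a (-4.14 ± 0.12), the T-type subunit Cacna1h (-3.36 ± 0.16) and the N-type subunit Cacna1b (-1.66 ± 0.068).

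Calcium signalling genes were higher in the cerebellum for 11 and in the cortex for 12 of 27 tested. Paralogous calcium handlers took different sides. The endoplasmic pump Atp2a3 measured 368, 346 and 272 CPM in the cerebellar libraries and 5.17, 2.29 and 2.65 CPM in the cortical libraries, whereas the widespread Atp2a2 was not called (0.42 ± 0.067). The ryanodine receptor Ryr1 was higher in the cerebellum (2.24 ± 0.13), and Ryr2 (-0.94 ± 0.076) and Ryr3 (-1.17 ± 0.19) in the cortex. The calcium sensor Hpcal1 was higher in the cerebellum (2.59 ± 0.13), and its relatives Hpcal4 (-4.59 ± 0.085), Hpca (-2.51 ± 0.084) and Ncald (-2.39 ± 0.069) in the cortex.

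Receptors for monoamines and acetylcholine were higher in the cortex in 23 of 34 cases and in the cerebellum in 5, with a median of -2.27. The serotonin receptor Htr1a measured 0.276, 0.172 and 0.214 CPM in the cerebellar libraries and 24.9, 22.3 and 23.7 CPM in the cortical libraries, Htr2a differed by -5.08 ± 0.18 and the muscarinic receptor Chrm3 by -5.604 ± 0.13. The dopamine receptor Drd1 measured 15.8, 27.1 and 12.8 CPM in the cortex, highest in replicate 2, as were the striatal markers, and 0.386, 0.2298 and 0.268 CPM in the cerebellum. Among those higher in the cerebellum were the serotonin receptor Htr1b (1.28 ± 0.14) and the adrenergic receptor Adra2b (3.83 ± 0.46).

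Neuropeptide precursors were higher in the cortex in 16 of 20 tested cases, with a median of -5.12. Prodynorphin, Pdyn, measured 0.331, 0.345 and 0.161 CPM in the cerebellar libraries and 25.1, 35.3 and 26.9 CPM in the cortical libraries, and the corticotropin-releasing hormone Crh differed by -5.38 ± 0.49. Neuropeptide Y, Npy, measured 19.8, 16.03 and 8.79 CPM in the cerebellar libraries and 66.7, 66.6 and 55.8 CPM in the cortical libraries. Penk, not called with DESeq2, and Nxph4 (1.72 ± 0.15), a relative of the neurexin ligand Nxph2, were the 2 list members higher in the cerebellum. Of 15 neurotrophic genes 8 were higher in the cortex, including Bdnf, at 15.3, 8.91 and 7.88 CPM in the cerebellar libraries and 37, 29 and 38.8 CPM in the cortical libraries, and the neuregulin receptor Erbb4 (-1.58 ± 0.10). The 3 higher in the cerebellum were the receptor tyrosine kinase Ret (4.02 ± 0.15), the low-affinity receptor Ngfr (2.17 ± 0.28) and neurotrophin 3, Ntf3 (2.15 ± 0.28). That count is near the 19.0% of all genes tested. The GDNF co-receptors Gfra1 (-2.54 ± 0.16) and Gfra2 (-2.17 ± 0.14), which bind Ret, were higher in the cortex.

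**Figure D5:**
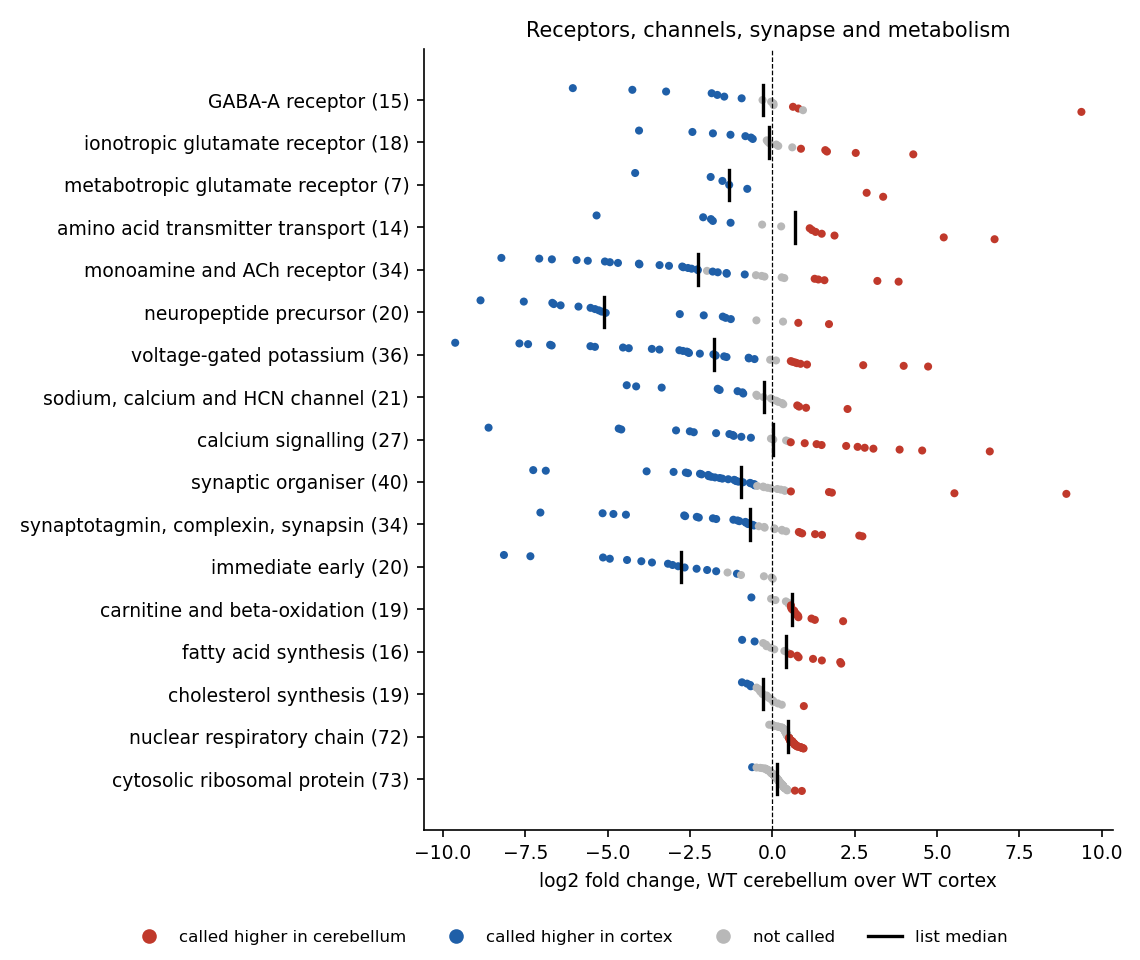
Log2 difference of every tested member of 17 lists of receptor, channel, synaptic, signalling, metabolic and ribosomal genes, positive when higher in the cerebellum, with the list median marked. Neuropeptide, immediate early and monoamine receptor genes lie furthest to the left, and ribosomal protein genes gather near 0.

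Synaptic organisers were higher in the cortex in 26 of 40 cases and in the cerebellum in 5. The cerebellin family split by member: Cbln1 and Cbln3 were higher in the cerebellum as given above, Cbln2 measured 0.276, 0.402 and 0.429 CPM in the cerebellar libraries and 39.7, 43.5 and 49.6 CPM in the cortical libraries, and Cbln4 was higher in the cortex by -3.82 ± 0.26. The neurexin ligand Nxph2 (-7.26 ± 0.55) and the leucine-rich Lrrtm1 (-3.0 ± 0.15) were higher in the cortex. Vesicle genes were higher in the cortex for 19 of 34 and in the cerebellum for 7, the latter near the 19.0% of all genes tested. Stx1a, a SNARE protein of the presynaptic membrane, measured 2.65, 2.36 and 2.04 CPM in the cerebellar libraries and 301, 324 and 306 CPM in the cortical libraries. The fast calcium sensors divided, with Syt1 at 303, 275 and 279.7 CPM in the cerebellar libraries and 1721, 1854 and 1804 CPM in the cortical libraries and Syt2 at 398, 373 and 375 CPM in the cerebellar libraries and 67.97, 52.98 and 63.2 CPM in the cortical libraries. Syt9 (2.73 ± 0.13) and Sv2c (1.505 ± 0.10) were higher in the cerebellum.

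Among 19 cadherins 6 were higher in the cerebellum and 8 in the cortex, from Cdh9 (-5.06 ± 0.19) to Cdh15. Ephrins and Eph receptors were higher in the cortex in 10 of 21 cases, including Epha4 (-2.73 ± 0.087), and in the cerebellum in 5, of which Epha8 was furthest (3.305 ± 0.13). Semaphorins, plexins and neuropilins were higher in the cortex in 14 of 31 cases, including Plxnd1 (-2.65 ± 0.10), and in the cerebellum in 8, including Sema4g (2.44 ± 0.072). Of 13 genes of the perineuronal matrix, neurocan, Ncan, measured 22.7, 22.4 and 25.6 CPM in the cerebellar libraries and 265, 264 and 247 CPM in the cortical libraries, while tenascin C, Tnc, a product of Bergmann glia, was higher in the cerebellum (2.93 ± 0.19). In all, 3 were higher in the cerebellum and 4 in the cortex, not far from the 19.0% and 21.4% of all genes tested.

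Immediate early genes, induced within minutes by neuronal activity, were higher in the cortex in 15 of 20 cases and in the cerebellum in none, with a median of -2.76. Their summed level was 409, 282 and 278 CPM in the cerebellum and 2457, 1268 and 2072 CPM in the cortex, lowest in cortex replicate 2. Arc, a regulator of AMPA receptor traffic, measured 17.2, 12.7 and 15.4 CPM in the cerebellar libraries and 525, 120.4 and 321 CPM in the cortical libraries. The zinc finger factors Egr1 and Egr3 measured 437, 221 and 322 and 195, 146 and 232 CPM in the cortex and 18.5, 20.8 and 22.8 and 1.16, 0.4597 and 0.375 CPM in the cerebellum. Npas4 measured 2.76, 0.689 and 2.47 CPM in the cerebellar libraries and 21, 12.3 and 42.1 CPM in the cortical libraries, a log2 difference of -3.66 ± 0.50, and Junb differed by -2.67 ± 0.24. Fos measured 45.04, 9.42 and 19.3 CPM in the cerebellar libraries and 75.2, 15.5 and 52.5 CPM in the cortical libraries, and its log2 difference of -0.95 ± 0.56 did not pass the test (edgeR adjusted p = 0.171). With the mouse as a block the log2 difference of Fos passed, at -0.98 (adjusted p = 4.34e-04), and it also passed without cerebellum replicate 1 (-1.73) or without cortex replicate 2 (-1.38). It did not pass without any of the other 4 libraries, and was smallest without cortex replicate 1 (-0.47). For Arc and Fos replicate 2 was lowest in both tissues, and how the animals were handled before dissection is not given in the sources used here.

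The promoter windows were searched for 5 motifs, on both strands except for the last: CAGCAGG, a ZIC motif; CAGATG, an E-box bound by NeuroD and Atoh1; the cyclic AMP response element; the short form TGACG of that element, chosen after the immediate early values were seen and contained in the full element; and the TATA box TATAAA. The Gabra6 window held none of them. The Vip window held TGACG 79 bases before the start and the TATA box at 157, 147 and 30 bases. The Junb window held TGACG at 106 bases, and the Fos window held TGACG at 129 and 66 bases and the TATA box at 33 bases. TGACG was present in 14 of 26 promoter windows of 15 immediate early genes (53.8%), in 17.8% of all 32851 windows and in 24.7% of windows of tested genes, and in 13.5% and 19.6% of windows of genes past 4-fold in the cerebellum and in the cortex. Of the other motifs, the same 26 windows held the ZIC motif in 0, the E-box in 1, the TATA box in 1 and the full cyclic AMP response element in 2. The ZIC motif was present in 12.9% of 599 windows of genes past 4-fold in the cerebellum, 9.89% of windows of genes past 4-fold in the cortex, 8.44% of all windows and 8.88% of windows of tested genes. In the same order, the E-box was present in 15.02%, 13.0%, 14.4% and 10.8% of windows, the TATA box in 6.51%, 7.09%, 7.59% and 4.05%, and the full cyclic AMP response element in 1.34%, 1.598%, 1.55% and 2.38%. These are matches of letters, described without a test. Several members, En2, Arc and Egr3 among them, had no window in the table.

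Clock genes were higher in the cortex in 5 of 16 cases, or 3 without cortex replicate 1, and in the cerebellum in 2. Npas2, a forebrain partner of Arntl, measured 2.15, 2.82 and 2.36 CPM in the cerebellar libraries and 34.6, 36.9 and 47.4 CPM in the cortical libraries, and Cry1 was higher in the cerebellum (1.08 ± 0.17). Nuclear receptors divided evenly, 10 and 10 of 32. Rora, needed by Purkinje cells, measured 391, 469 and 384 CPM in the cerebellar libraries and 95, 98.03 and 99.98 CPM in the cortical libraries, and Rorb measured 15.6, 15.7 and 14.8 CPM in the cerebellar libraries and 63.7, 60.4 and 59.5 CPM in the cortical libraries. The oestrogen-related receptors Esrra (0.95 ± 0.078), Esrrb (2.82 ± 0.15) and Esrrg (1.96 ± 0.070) were higher in the cerebellum, and the thyroid hormone receptors Thra (-0.99 ± 0.075) and Thrb (-2.36 ± 0.16) in the cortex. Neuronal RNA-binding proteins were higher in the cortex for 11 of 27 and in the cerebellum for 4, led by Celf5 (-3.54 ± 0.11) and Msi1 (0.93 ± 0.078).

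Fatty acid oxidation and carnitine genes were higher in the cerebellum in 13 of 19 cases and in the cortex in 1, with a median of 0.60. Etfa, which passes electrons from acyl-CoA dehydrogenases to the respiratory chain, measured 71.9, 75.6 and 77.2 CPM in the cerebellar libraries and 30.9, 36.7 and 31.1 CPM in the cortical libraries. The carnitine palmitoyltransferase Cpt2 was higher by 1.29 ± 0.19 and the trifunctional subunit Hadha by 0.78 ± 0.069, and the neuronal form Cpt1c was higher in the cortex (-0.64 ± 0.077). Nuclear-encoded respiratory chain genes were higher in the cerebellum in 33 of 72 cases and in the cortex in none, with a median of 0.48 that lies just under the size required for a call, and their count was 55 when library size alone set the scale. Ndufc2 of complex I measured 111, 117 and 108 CPM in the cerebellar libraries and 58.3, 64.9 and 57.7 CPM in the cortical libraries, and the ATP synthase beta subunit Atp5b was higher by 0.53 ± 0.062 and was not called without cerebellum replicate 1 (0.49). The 37 genes of the mitochondrial chromosome had 0 counts in all 6 libraries, so nothing is said of them.

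Cholesterol synthesis genes were called in 4 of 19 cases in favour of the cortex and in 1 in favour of the cerebellum, shares no higher than those of all genes tested (21.4% and 19.0%). Fatty acid synthesis genes were higher in the cerebellum in 7 of 16 cases, including the elongases Elovl2 (1.501 ± 0.13) and Elovl5 (0.80 ± 0.062) and the mitochondrial acetyl-CoA carboxylase Acacb (2.09 ± 0.26), and in the cortex in 2, Fasn (-0.54 ± 0.070) and Fads3 (-0.92 ± 0.16), with Fasn at -0.49 and not called without cerebellum replicate 3. Triglyceride and lipid droplet genes were higher in the cerebellum in 8 of 19 cases, including the droplet coat protein Plin3 (1.47 ± 0.11) and Cidea (2.67 ± 0.24), and in the cortex in 3. Mgll, which breaks down the endocannabinoid 2-arachidonoylglycerol, measured 88.2, 80.2 and 85.5 CPM in the cerebellar libraries and 280.4, 312 and 305 CPM in the cortical libraries, and Dgat2, which makes triglyceride, differed by -1.86 ± 0.10. Sphingolipid and ganglioside genes divided 6 to 6 among 25, near the shares of all genes tested. The myelin lipid enzymes Ugt8a (0.78 ± 0.084) and Fa2h (0.85 ± 0.13) were higher in the cerebellum, and the neutral sphingomyelinase Smpd3 (-2.43 ± 0.14) and ganglioside synthase B4galnt1 (-1.32 ± 0.067) in the cortex.

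Lysosomal genes were called in 3 of 22 cases in favour of the cerebellum, including Npc2 (0.74 ± 0.076) and Lamp1 (0.63 ± 0.071), and in 2 in favour of the cortex, the first count being 5 without cerebellum replicate 1. Both counts lie below the 19.0% and 21.4% of all genes tested. Ferroptosis and iron genes were higher in the cortex in 3 of 16 cases, the cystine transporter Slc7a11 (-1.23 ± 0.077), the lipid ligase Acsl4 (-1.202 ± 0.092) and the iron exporter Slc40a1 (-0.76 ± 0.15). Transferrin, Trf, was the 1 higher in the cerebellum (1.84 ± 0.086), and 63.4% of its exons overlap other genes. These counts too are below the shares of all genes tested. Snx14, the gene mutated in the colony, measured 63.4, 63.3 and 66.9 CPM in the cerebellar libraries and 53.2, 54.7 and 59.4 CPM in the cortical libraries. The cerebellar libraries lay above the cortical ones, and the log2 difference of 0.21 ± 0.069 (edgeR adjusted p = 0.0233) was below the size required for a call. Its 3 tested relatives with the same domains were not called in either direction.

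Genes that cause hereditary ataxia were higher in the cerebellum in 16 of 39 cases and in the cortex in 4, against 19.0% and 21.4% of all genes tested. The list shares members with the lists above, among them Car8, Itpr1, Cacna1a and Cacna1g. Kcnd3 (0.69 ± 0.10), the lipoprotein receptor Vldlr (0.98 ± 0.080) and the vitamin E carrier Ttpa (1.35 ± 0.16) were also higher in the cerebellum, and Atxn1 (-1.16 ± 0.072), Atxn3 (-0.72 ± 0.081) and Ppp2r2b (-1.81 ± 0.070) were higher in the cortex. Cytosolic ribosomal proteins were called in 2 and 1 of 73 cases and proteasome subunits in 1 and 0 of 14, below the background shares. The first ribosomal count was 5 without cerebellum replicate 2, and the proteasome count was 0 without cerebellum replicate 1 or without cortex replicate 1.

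Levels can be set against each other between genes only per transcript length, as TPM, in which counts are divided by gene length and scaled to a fixed total. The protein-coding gene with the most TPM in the cerebellum was Ttr, at a mean of 8765, which rests on replicates 2 and 3. Pvalb reached 3526 TPM in the cerebellum and 232 in the cortex, creatine kinase Ckb 2876 and 1406, and aldolase Aldoc 2412 and 873. In the cortex Nrgn reached 3547 TPM against 9.45 in the cerebellum, carboxypeptidase Cpe 3142 against 1206, cystatin Cst3 2929.7 against 1519 and the kinase inhibitor Camk2n1 2388 against 283. Calmodulin 2, Calm2, and the matrix protein Sparcl1 were among the 10 most abundant protein-coding genes of both tissues, and neither was called.

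The regional differences were looked for again in the Snx14-KO libraries, which come from other animals. Of the 3529 genes higher in WT cerebellum 3456 were tested there, 3442 had the same direction and 2807 were called the same way, and 0 were called the opposite way. Of the 3967 higher in WT cortex 3876 were tested, 3827 had the same direction and 3245 were called the same way, and 1 was called the opposite way. In the KO tissues 3383 genes (18.2%) were called higher in the cerebellum and 3637 (19.6%) in the cortex. Among WT genes past 4-fold that were tested there, 678 of 678 cerebellar and 1108 of 1114 cortical genes had the same direction. Across the 18181 genes tested in both, which are not independent replicates, Pearson's r of the 2 sets of log2 differences was 0.948. Gabra6 measured 487, 628 and 562 CPM in KO cerebellum and 0.815, 0.0550 and 0.480 CPM in KO cortex. Some forebrain genes were higher in KO cerebellum replicates 1 and 3 than in any WT cerebellum: Nrgn measured 123, 9.23 and 118 CPM, Gda 13.8, 1.34 and 11.1 CPM and Lhx2 2.66, 0.111 and 3.93 CPM in the 3 KO cerebellar libraries. Tbr1, at 0.628, 1.22 and 0.327 CPM, did not share that order of libraries, and its source was not tested.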

How the data were processed

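RNA was extracted with TRIzol from cerebellum and cortex, and paired-end libraries were prepared with the NEBNext Ultra kit from 1 µg of RNA. The authors aligned trimmed reads to GRCm38 with STAR 2.7.3a and deposited raw counts per gene from featureCounts 2.0.1, without strand, without multiply mapped reads, and with a read pair counted for every gene it overlapped. The methods call the libraries strand-specific. Counts of the 6 WT libraries were tested with edgeR 4.0.16 in R 4.3.3 (filterByExpr, TMM, quasi-likelihood fit with tissue as the only term, limma 3.58.1), at a Benjamini-Hochberg adjusted p under 0.05 and a log2 difference over 0.5. Log2 errors are the difference divided by the square root of its F statistic. A further 26248 numbered features that name no gene (0.0554 to 0.0632% of counts) and 97 spike-in entries, all at 0, were left out. TPM used the deposited gene lengths.

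Mouse numbers in the titles pair the tissues. In the WT libraries, deviations from the tissue means correlated between tissues at 0.0836, 0.109 and 0.0674 for the same mouse. Other pairs were negative, but deviations from a mean of 3 libraries sum to 0, so those negative values add no separate support. In the Snx14-KO libraries same-numbered pairs gave 0.278, 0.0178 and 0.0854, and other pairs ranged from -0.214 to 0.126. The fit with mouse as a block is given where it changed a named gene's call or moved a count by over 1.5 times. Genes were named by rule: the 12 called genes with the largest difference in each direction at 50 CPM or more in the higher tissue, the 10 with most TPM (ranked among protein-coding genes, a choice made after seeing that short genes inside others led the ranking), the 5 most abundant genes near absence in the other tissue, and members of the gene lists. The rule's 5 genes of at least 200 CPM with the smallest difference are not described. The comparison, lists and members were chosen with earlier results of these data known. Alternatives were DESeq2 1.42.0, other scalings and filters, a test against a minimum fold, all 12 libraries in 1 fit, genes free of overlap, and leaving out each library. Counts were also simulated for 18264 genes, with 3 libraries per tissue. Of these genes 100 were changed by a log2 of 1 and 100 by a log2 of 2. The fit recovered 77% and 93% of them, with 6.59% false calls. In the real data 40.4% of genes were called, so these rates do not measure the accuracy of this comparison. Intervals and limits cover counting error only. The p-values of the main fit measure the spread between the 3 libraries within each tissue, without the pairing by mouse. Promoter windows are from RefSeq, and protein sequences are not analysed here. Some genes that these rules name are not reported here.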

Additional observations from a re-analysis of the deposited data

Results flagged for a closer look

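Features that carry only a number and name no gene were outside every comparison. They held from 0.0554% of counts in cortex replicate 3, the lowest of the WT libraries, to 0.0632% in cerebellum replicate 3, the highest, and were flagged only because no control samples give a level for them and the counts exceed the limit that a count of 0 allows.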

How the results depend on the processing

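The number of genes higher in the cerebellum (3529) ranged from 3330 to 3622 when each library was left out in turn, and was 3503 with the replicate block, 3325 with DESeq2, 2355 in the test against a minimum fold and 4491 with library size alone. The number higher in the cortex (3967) ranged from 3883 to 4069 and was 3946 with the block, 3891, 3067 and 3415 under the same alternatives. Pairing by mouse removed 155 of 7496 calls, added 108 and reversed 0, and beyond Fos it changed no call of a gene named in the report. Genes near absence in the cortex fell from 20 to 5, and in the cerebellum from 75 to 16, when 2 CPM and 0.05 CPM were required.

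With cerebellum replicate 1 alone, an alternative chosen after seeing the data whose lone library is assumed to vary like the cortical ones, members called higher in the cerebellum numbered 2 for choroid plexus, 3 for meningeal fibroblasts, 3 for blood, 4 for triglyceride genes, 0 for endothelium and 13 for ribosomal proteins, those higher in the cortex 3 for the clock and 2 for cholesterol synthesis, and the mural median turned to -0.0482. Kl turned to -1.19 and Sema3b to -0.36, and Ttr (0.15), Folr1 (0.036), Enpp2 (0.0089), Sgms2 (0.55) and Mfsd2a (-0.57) were no longer called. Library size alone gave 5 endothelial, 4 mural, 5 lysosomal, 9 ribosomal and 55 respiratory chain members higher in the cerebellum, a glutamate receptor median of 0.00708, and Fasn (-0.42) outside and Atp2a2 (0.54) and Sparcl1 (0.50) inside the calls. RLE scaling gave 0 endothelial members, and RLE, DESeq2 and no filter each gave 0 proteasome members. Without genes that overlap others, 2 cholesterol genes were higher in the cortex and the calcium signalling median was -0.00386. Leaving out each library gave 0 to 2 endothelial, 2 to 5 mural, 5 to 8 meningeal, 3 to 5 lysosomal, 2 to 5 ribosomal and 0 to 1 proteasome members higher in the cerebellum and 3 to 7 clock genes higher in the cortex. Medians then ranged from -0.51 to 0.20 for border macrophages, from -0.029 to 0.10 for calcium signalling and from -0.019 to 0.034 for Snx14 and its relatives, whose median was -0.0020 with DESeq2 and with RLE.

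Among uncalled genes, Cux1 was -0.0013 with DESeq2, -0.0012 with RLE and -0.030 to 0.057 without single libraries, and Gabrb2 was -0.12 with cerebellum replicate 1 alone and -0.070 to 0.11 without single libraries. Xist, uncalled and present mainly in mouse 1, was 0.98 with cerebellum replicate 1 alone and -6.14 to 7.63 without single libraries. Fos was called without a filter (-0.96). Of 3705 values for named genes under alternatives, 3662 kept their direction and their side of the threshold. Some sizes still moved beyond their printed errors. Without single libraries Irx2 ranged from 5.12 to 9.96, Barhl1 from 4.74 to 7.99 and Lhx6 from -11.4 to -6.92, among others. The causes of these changes were not tested. Low counts limit ratios near absence, since 1 to 3 counts leave wide intervals.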
